A study of Mus musculus with 6 samples.

Results

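The 7 carrier and adhesion proteins of fetal plasma, Afp, Alb, Ttr, Rbp4, Ambp, Hpx and Vtn, are described here in RNA of the mouse embryonic pancreas, where their transcripts were measured with and without the transcription factor Sox4. Members were the probes whose single gene symbol in the platform annotation was that of 1 of these 7 genes. There were 13 such probes, of 21888 in the table, and 7 genes of the 11023 with a single-symbol probe. All 13 probes had a value on at least 4 of the 6 arrays and none was lost to a filter. The genes were chosen with results of this same comparison in view, so their ratios are given as a description. The number of their probes past the threshold of the fit over all probes is printed once, beside the background, and supports nothing.

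Pancreases of homozygous Sox4-/- embryos and of their wild-type littermates, both at embryonic day 12.5, were compared on 6 spotted arrays of 2 channels, with the wild-type RNA in channel 1 and the knockout RNA in channel 2 on each. The protocol text of arrays 1 and 2 says that the organs were combined into 2 groups before RNA extraction and that the RNA was amplified linearly, so the arrays may be repeats of 1 pool per genotype and their spread may be technical. Each value is a log2 ratio of the channels, centred on the median of its array, and was read as knockout over wild type. That reading is only likely and rests on the channel order, since neither the dyes nor the direction is stated in the sources used here. Under the opposite reading, every value under 0 would be as much higher in the RNA labelled knockout, and ranks would count from the other end. The labels name a homozygous knock-out of Sox4 from an earlier mouse line, with no driver or restriction to a cell type, and name no strain. The 2 probes of Sox4 had means of -0.03 and -0.09, and where they lie relative to the deleted part is not stated, so they check neither the labels nor the direction. Groups are therefore called by their labels, as the RNA labelled knockout or labelled wild type.

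The proteins of this group are secreted into the blood. Hepatoblasts of the fetal liver and the visceral endoderm of the yolk sac are their classical sources before birth. Alb and Afp are paralogues of a gene family in which Afp is the form of the fetus and Alb that of the adult, and both carry fatty acids and other small ligands. Ttr carries thyroid hormone and holds the retinol carrier Rbp4 in the circulation. Ambp is a precursor that is cut into alpha-1-microglobulin, which binds haem and radicals, and bikunin, a protease inhibitor. Hpx binds free haem, and Vtn is an adhesion protein that binds integrins and the urokinase receptor. The pancreas and the liver arise from neighbouring foregut endoderm. In RNA of whole tissue, fewer cells of a type and less RNA per cell cannot be told apart.

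The 7 genes did not share a single ratio. Read as knockout over wild type, the RNA labelled knockout was, at 3 of 4 Afp probes, about 4-fold lower, the 1 Ambp probe and 1 of 2 Vtn probes were 1.70-fold and 1.92-fold lower, Alb and Ttr lay slightly under 0, and Hpx and the other Vtn probe lay at 0. The median of the 13 probe means was -0.24, with 10 means under 0 and 3 above 0, against a median of 0.03 over all 21247 tested probes. With limma's moderated test and Benjamini-Hochberg adjustment, 5 of the 13 probes were past an adjusted p of 0.05 under 0 and 0 above 0, beside 3.53% of all tested probes under 0, 1.96% above 0 and 5.49% on either side. These 5 belong to Afp, Ambp and Vtn, and nothing is read from this count because the genes were chosen on the same ratios. Without single arrays the count ranged from 3 to 5.

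**Figure D1:**
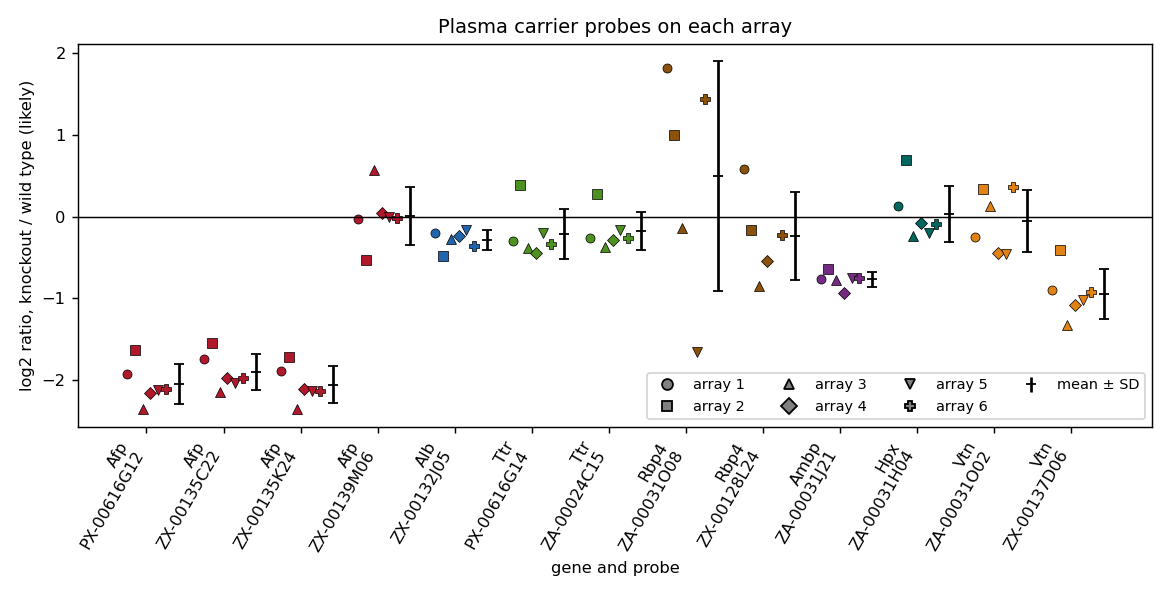
Log2 ratio (knockout over wild type, likely direction) of each plasma carrier probe on each of the 6 arrays, 1 marker shape per array, with the mean ± SD beside it. The 3 low Afp probes lie between -2.36 and -1.55 on every array, the Rbp4 probe ZA-00031O08 spreads from -1.66 to 1.81, and array 2 is the highest array for both Ttr probes and for Hpx.

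Afp, the alpha-fetoprotein, had the lowest ratios of the group. Its probe PX-00616G12 was at -1.92, -1.63, -2.36, -2.15, -2.13 and -2.11 on arrays 1 to 6. The probe ZX-00135K24 was at -1.88, -1.72, -2.36, -2.11, -2.13 and -2.13. The probe ZX-00135C22 was at -1.74, -1.55, -2.15, -1.97, -2.03 and -1.97. All 18 values lay far under 0, and on each array the 3 probes lay within 0.21 of each other, so the probes differed less among themselves than the arrays did. Array 2 gave the smallest difference and array 3 the largest at each of the 3 probes.

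In means, these probes stood at -2.05 ± 0.25 (SD, n = 6 arrays), -2.06 ± 0.22 and -1.90 ± 0.22. That is 4.14-fold, 4.16-fold and 3.73-fold lower in the RNA labelled knockout, and on single arrays from 2.93-fold to 5.12-fold. Ordered from the lowest mean among the 21247 tested probes, they held ranks 7, 6 and 14. On no array did any of them rise above the lowest 1.60% of the values.

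The remaining Afp probe, ZX-00139M06, did not share this pattern. It was at -0.03, -0.53, 0.58, 0.04, -0.01 and -0.01 on arrays 1 to 6, with a mean of 0.01 ± 0.35. Its values lay on both sides of 0, and its lowest and highest arrays, 2 and 3, were those on which the other Afp probes were highest and lowest. On the same source plate, per the probe names, a probe annotated as Acin1, a nuclear protein of apoptotic chromatin condensation and splicing, had the opposite discrepancy. That probe, ZX-00139D19, was at -1.81, -1.56, -2.21, -2.08, -2.15 and -2.13, while the other Acin1 probes had means of 0.02 and 0.39. The root mean square distance of ZX-00139D19 from the mean of the 3 low Afp probes was 0.06, inside the range of 0.05 to 0.10 for those Afp probes themselves, and the median distance over 18178 probes with 6 values was 2.04. Whether either annotation is wrong was not tested. Among probes past the threshold in the gene lists below, those of Nr2f2 and Hba-a1, ZX-00139O18 and ZX-00139F15, carry the same plate name.

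Alb, albumin itself, lies next to Afp on chromosome 5, with no other protein-coding gene of the annotation between them, and had 1 probe. It was at -0.20, -0.49, -0.27, -0.24, -0.16 and -0.36 on arrays 1 to 6, with a mean of -0.29 ± 0.12. All 6 arrays lay under 0, and array 2, which had the smallest Afp difference, had the largest for Alb. The values correspond to 1.12-fold to 1.40-fold lower, 1.22-fold at the mean. The difference in log2 ratio between the mean of the low Afp probes and Alb was -1.65, -1.15, -2.01, -1.84, -1.93 and -1.71 on arrays 1 to 6. Afp was below Alb on every array, and the ranges of the 2 genes at these probes did not overlap. Afm, also of the albumin family and the next gene after Afp, has no probe with its symbol in the table.

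The 250 bases before the annotated start are shown for the 2 neighbouring genes, which shared a direction but not a size, and for 3 others. Of these, Ambp and 1 of 2 Vtn probes lay under 0 and Hpx did not. The windows come from RefSeq, build GRCm38.p6, read 5′ to 3′ on the gene's strand. Windows of 6 of the 7 genes were searched, and none of Ttr was used. Capitals mark matches to 4 motifs, searched on both strands and chosen after the sequences had been seen: GTTAAT, a half-site of HNF1 factors, TGTTTNC of FOXA factors, CAAGGNCA of NR5A2, and TATAAA, the TATA box.
Afp, chr5:90490464-90490713, + strand: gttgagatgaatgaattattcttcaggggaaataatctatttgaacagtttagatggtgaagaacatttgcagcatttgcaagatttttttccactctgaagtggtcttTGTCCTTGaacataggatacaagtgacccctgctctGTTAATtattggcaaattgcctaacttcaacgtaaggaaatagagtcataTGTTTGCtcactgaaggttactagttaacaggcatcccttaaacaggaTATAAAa
Alb, chr5:90460620-90460869, + strand: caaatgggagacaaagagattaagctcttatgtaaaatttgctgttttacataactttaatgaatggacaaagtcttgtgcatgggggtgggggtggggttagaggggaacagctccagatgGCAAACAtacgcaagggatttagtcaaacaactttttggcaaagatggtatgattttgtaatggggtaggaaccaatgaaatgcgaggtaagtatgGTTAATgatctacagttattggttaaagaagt
Ambp, chr4:63154173-63154422, - strand: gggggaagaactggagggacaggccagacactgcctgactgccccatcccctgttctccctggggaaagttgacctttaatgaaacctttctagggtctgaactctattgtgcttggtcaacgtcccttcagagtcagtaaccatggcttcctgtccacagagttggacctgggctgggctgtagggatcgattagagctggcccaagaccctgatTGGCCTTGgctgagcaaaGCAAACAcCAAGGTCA
Vtn, chr11:78498870-78499119, + strand: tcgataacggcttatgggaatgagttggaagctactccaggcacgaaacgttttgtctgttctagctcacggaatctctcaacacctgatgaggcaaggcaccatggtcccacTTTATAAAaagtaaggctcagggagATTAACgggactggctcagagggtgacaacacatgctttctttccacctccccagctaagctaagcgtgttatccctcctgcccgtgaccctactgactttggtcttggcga
Hpx, chr7:105600117-105600366, - strand: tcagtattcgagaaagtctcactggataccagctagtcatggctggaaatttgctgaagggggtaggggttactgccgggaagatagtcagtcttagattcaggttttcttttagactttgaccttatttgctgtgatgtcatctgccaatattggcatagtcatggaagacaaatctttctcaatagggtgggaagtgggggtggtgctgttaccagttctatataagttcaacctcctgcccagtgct

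The Afp window held all 4 motifs: CAAGGNCA on the opposite strand from -141 to -134, GTTAAT from -105 to -100, TGTTTNC from -55 to -49 and TATAAA from -7 to -2, counted from the annotated start. The Alb window held TGTTTNC on the opposite strand from -128 to -122 and GTTAAT from -32 to -27. The Ambp window held CAAGGNCA on the opposite strand from -34 to -27 and on the gene's strand from -8 to -1. It also held TGTTTNC on the opposite strand from -16 to -10. The Vtn window held GTTAAT on the opposite strand from -112 to -107 and TATAAA on both strands, overlapping, from -137 to -132 and from -135 to -130. No match of the 4 was present in the Hpx window. In windows of Rbp4, not shown, TGTTTNC lay on the opposite strand from -241 to -235 and TATAAA on the gene's strand from -28 to -23. Over all 32851 windows of this length in the table, GTTAAT was present in 6.43%, TGTTTNC in 17.8%, CAAGGNCA in 5.53% and TATAAA in 12.4%. Another motif, AACAAAG of SOX factors, was present in 5.03% of all windows and in none of those of the 6 genes. Matches of this kind describe letters and not binding, and a missing match says only that these letters are not in the window. Because the motifs were chosen after the sequences had been seen, matches cannot be set against the ratios. Nothing is read from which of the genes hold them.

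**Figure D2:**
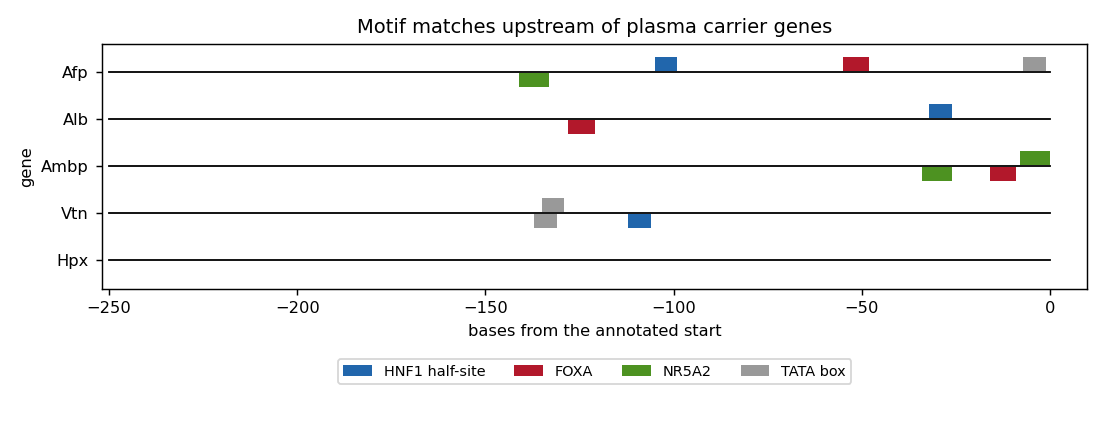
Positions of motif matches in the 250 bases before the annotated start of 5 plasma carrier genes, with matches on the gene's strand above each line and on the opposite strand under it. GTTAAT lies at -105 in Afp, -32 in Alb and -112 in Vtn, and the Hpx line has no match.

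Ambp had the tightest ratios of the group. Its 1 probe was at -0.76, -0.64, -0.78, -0.94, -0.75 and -0.75 on arrays 1 to 6, with a mean of -0.77 ± 0.10. All 6 arrays lay under 0 and array 4 was lowest. The RNA labelled knockout was 1.70-fold lower at the mean, 1.55-fold to 1.92-fold on single arrays. The SD was under the median SD of 0.29 over all tested probes. The bikunin part of Ambp circulates bound to the heavy chains of the inter-alpha-inhibitor family, and of these only Itih4, a related protein that does not bind bikunin, was measured, at 0.04 ± 0.24 and 0.23 ± 1.30. Neither was past the threshold.

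The 2 probes of Vtn disagreed. ZX-00137D06 was at -0.90, -0.40, -1.33, -1.08, -1.02 and -0.93 on arrays 1 to 6, with a mean of -0.94 ± 0.31, 1.92-fold lower. All 6 arrays lay under 0, and as for Afp, array 2 was the highest and array 3 the lowest. ZA-00031O02 was at -0.25, 0.34, 0.12, -0.45, -0.46 and 0.36, with a mean of -0.06 ± 0.38 and 3 arrays on each side of 0. Of its 6 deposited ratios, 5 were quotients of whole numbers up to 20 within 6e-04 in log2, against 0 of 6 for ZX-00137D06 and 22.6% of the values of all tested probes. Ratios of small whole-number intensities take such values, and intensities were not used here.

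Rbp4, the retinol carrier, could not be placed on either side of 0. Its probe ZA-00031O08 was at 1.81, 0.99, -0.14, -1.66 and 1.44 on arrays 1, 2, 3, 5 and 6, with no value on array 4, and had a mean of 0.49 ± 1.41 (SD, n = 5). The probe ZX-00128L24 was at 0.58, -0.16, -0.86, -0.54 and -0.22 on arrays 1, 2, 3, 4 and 6, with a mean of -0.24 ± 0.54 (n = 5). Both were spread widely, and quotients of small whole numbers made up 4 of 5 and 2 of 5 of their ratios.

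Ttr, which carries Rbp4 and thyroid hormone, was measured with better agreement. Its probe PX-00616G14 was at -0.30, 0.39, -0.38, -0.45, -0.20 and -0.34 on arrays 1 to 6, with a mean of -0.21 ± 0.31. The probe ZA-00024C15 was at -0.26, 0.27, -0.37, -0.28, -0.17 and -0.27, with a mean of -0.18 ± 0.23. Both lay under 0 on 5 of 6 arrays and above 0 on array 2. Without array 2 the means were -0.33 and -0.27. Of the other genes of retinoid handling, 5 of 18 in the list were measured, at 1 probe each, and none was past the threshold in either direction. Lrat, which esterifies retinol, had the smallest p, with all 6 arrays above 0 and a mean of 0.19 ± 0.11. The list's median was 0.18, with array medians from 0.02 to 0.34.

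Hpx, the haem carrier, was at 0.12, 0.69, -0.24, -0.08, -0.21 and -0.10 on arrays 1 to 6, with a mean of 0.03 ± 0.35. Arrays 1 and 2 lay above 0 and arrays 3 to 6 under it. Without array 2 the mean was -0.10.

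In order of their means, the 3 low Afp probes came first, then Vtn ZX-00137D06 at -0.94 and Ambp at -0.77. The ranges of Vtn ZX-00137D06 and Ambp overlapped, so their order is not set. Alb, Rbp4 ZX-00128L24 and both Ttr probes followed, between -0.29 and -0.18, with overlapping ranges. The lowest of the Alb and Ttr values, -0.49, did not reach the highest Ambp value of -0.64. The lowest Vtn ZX-00137D06 value, -1.33, did not reach the highest value of the low Afp probes, -1.55. Of the 11 member probes with values on all arrays, 6 were under 0 on every array. The corresponding share of all 18178 probes with 6 values was 13.8%. The 6 include the 3 low Afp probes, and nothing is read from this count because the genes were chosen on the same ratios.

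**Figure D3:**
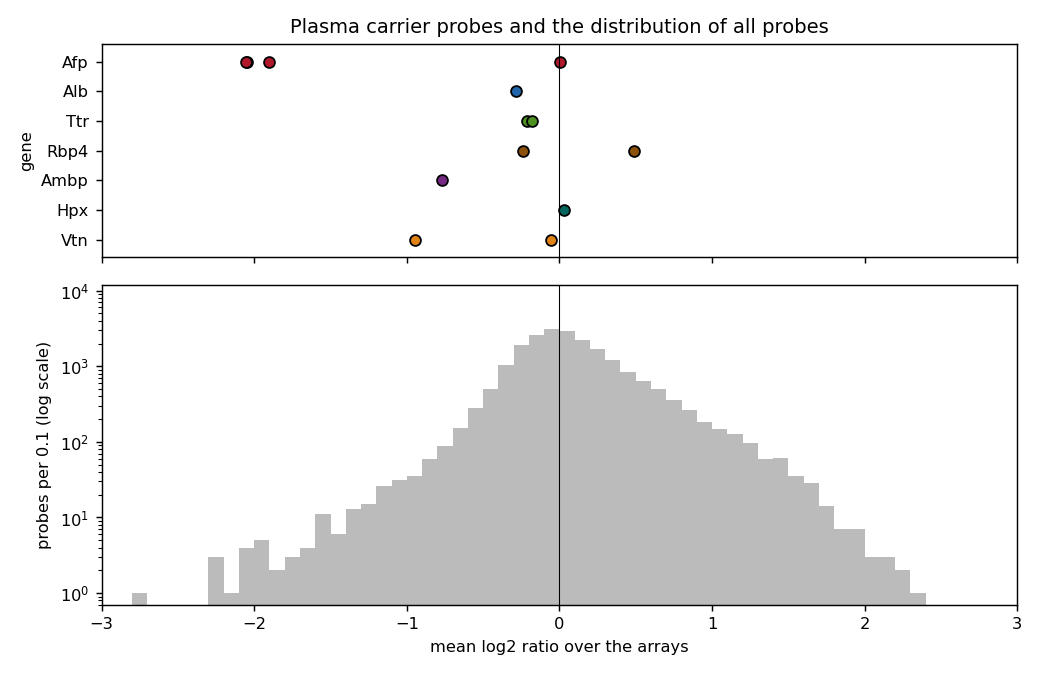
Mean log2 ratio of each plasma carrier probe, by gene (top), above the distribution of the means of all 21247 tested probes in steps of 0.1, with a log scale for the number of probes (bottom). The 3 low Afp probes lie near -2 at the thin end of the distribution, and Hpx, Alb and Ttr lie in its bulk.

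The arrays fell into a pair and a group of 4, of which only arrays 1 and 2 carry the longer protocol text in their labels. Mean ratios of the low Afp probes were -1.78, -1.80 and -1.65 over arrays 1 and 2, and -2.19, -2.18 and -2.03 over arrays 3 to 6. Ambp was at -0.70 and -0.80 in the 2 sets, Alb at -0.35 and -0.26, and Vtn ZX-00137D06 at -0.65 and -1.09. These 6 probes were under 0 in both sets. The Ttr probes were at 0.04 and 0.01 over arrays 1 and 2, and at -0.34 and -0.27 over arrays 3 to 6. Hpx was at 0.41 and -0.16 in the 2 sets. The Rbp4 probes were at 1.40 and 0.21 over arrays 1 and 2, and at -0.12 and -0.54 over arrays 3 to 6. Vtn ZA-00031O02 was at 0.04 and -0.11, and Afp ZX-00139M06 at -0.28 and 0.15. The sign of the set means of these 7 probes therefore differed. Arrays 1 and 2 themselves lay on opposite sides of 0 for both Ttr probes, Rbp4 ZX-00128L24 and Vtn ZA-00031O02. For these probes the set mean does not describe both arrays. At both Ttr probes, array 1 lay under 0 as arrays 3 to 6 did, and only array 2 lay above it. Arrays had deposited medians from -0.01 to 0.20, 439 to 1654 missing values each, and a median absolute deviation of 0.27 to 0.54, the widest on array 2.

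**Figure D4:**
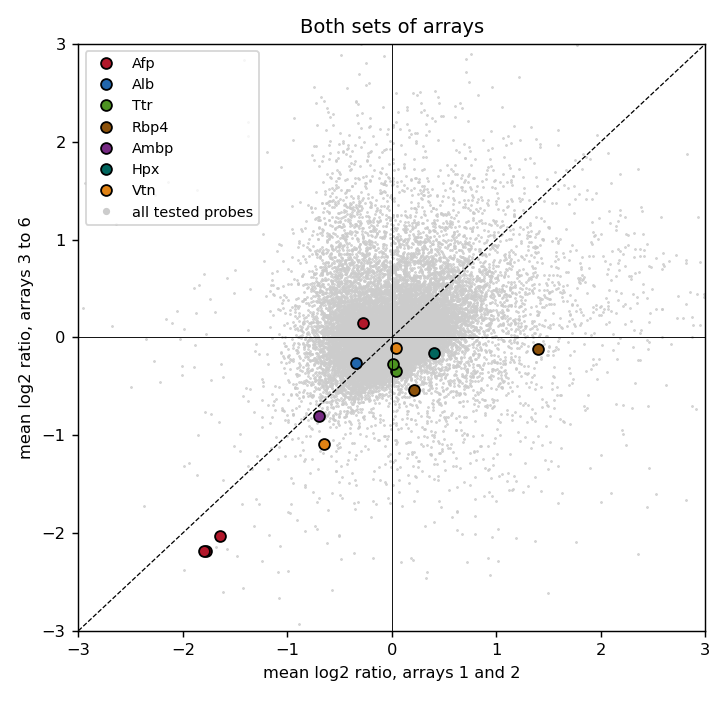
Mean log2 ratio over arrays 1 and 2 (horizontal) and over arrays 3 to 6 (vertical) of the plasma carrier probes, coloured by gene, and of all tested probes in grey, with a dashed line of equal values. The 3 low Afp probes lie at the lower left, Ambp and Vtn ZX-00137D06 lie nearer the centre, and 30 probes lie outside the limits of 3.

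The probes whose array values lay nearest to the mean of the low Afp probes, apart from the Acin1 probe, were at larger distances. Over 6 arrays, they were Hsd3b1, an enzyme of steroid synthesis, at a root mean square distance of 0.44, and Eya2, a transcriptional cofactor, at 0.55. Fabp4, a fatty acid carrier of the cytoplasm, was at 0.71, Akr1c19, an aldo-keto reductase, at 0.73, and Mt2, a metallothionein, at 0.82. Bnip3, a mitochondrial protein of the hypoxia response, was at 0.87. The next were 3 genes of plasma proteins: Fgb, a fibrinogen chain, at 0.89, Serpina1e, an alpha-1-antitrypsin, at 0.91, and Fgg, also a fibrinogen chain, at 0.98. Serpina1e was at -1.18, -1.12, -0.94, -1.42, -1.13 and -1.04 on arrays 1 to 6, a mean of -1.14 ± 0.16 and 2.20-fold lower. All 6 arrays lay under 0. These probes were chosen for their closeness to the low Afp probes, so low values on every array follow from the choice. Nothing is read from those values. Among the other members, the nearest to Afp were Vtn ZX-00137D06 at 1.06 and Ambp at 1.25, and Alb was at 1.74.

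Lists of related genes were read with the same limma fit over all 21247 probes, in which 3.53% were past the adjusted threshold under 0 and 1.96% above it. Of 20 other plasma carriers, 4 genes were measured at 7 probes. Cp, or ceruloplasmin, the copper carrier and ferroxidase, was higher at both of its probes, 0.57 ± 0.20 and 0.56 ± 0.23, with limma adjusted p of 0.030 and 0.036. Its probe PX-00617N21 was at 0.21, 0.59, 0.72, 0.63, 0.52 and 0.75 on arrays 1 to 6, and all 12 Cp values were above 0. With the array set as a term the other Cp probe, PX-00632L05, was not past the threshold (limma adjusted p 0.053). Of the 6 ratios of PX-00632L05, 3 were quotients of small whole numbers. Apom, a carrier of sphingosine-1-phosphate, was at 0.48 ± 0.53 and Fetub, a plasma protease inhibitor, at 0.16 and -0.05, with none of these past the threshold. The list's median was 0.23.

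Among secreted proteins of the fetal liver, 8 genes were measured at 11 probes, and 4 of these probes, of 3 genes, passed under 0 and 0 passed above 0. Fgb was at -1.12 ± 0.26 and -0.92 ± 0.28, with adjusted p of 0.013 and 0.021 in the limma fit. Fgg was at -1.14 ± 0.31, with an adjusted p of 0.019 by limma, and 3 of its 6 ratios were quotients of small whole numbers. Apoc1, an apolipoprotein, was at -0.64 ± 0.32, with an adjusted p of 0.042 by limma, and 0.061 with the array set as a term. The others, of Apoc3, Apoe, Apoh, Kng1 and Serpinf1, ranged from -0.62 to 0.36. The median of the list was -0.13, with array medians from -0.49 to 0.01. Liver enzymes, which mark hepatocytes but are not secreted, were measured at 2 probes of 12 genes. Fbp1, of gluconeogenesis, was at 0.43 ± 0.60 and Cyp3a11, of drug metabolism, at 0.80 ± 1.14, neither past the threshold. How far liver tissue in the samples contributes to the Afp ratio was not tested.

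In the visceral endoderm list, 2 of 12 probes were past the threshold under 0 and 0 above 0, with array medians from -0.32 to -0.08. They were Spink1, a trypsin inhibitor that acinar cells also make, at -0.82 ± 0.14 (limma adjusted p 0.013) at 1 of 2 probes, and Ctsh, a lysosomal protease, at -0.61 ± 0.21 (limma adjusted p 0.030). The other Spink1 probe was at -0.26 and not past the threshold. The endocytic receptor subunit Amn was at 0.09 and, over 5 arrays with values from 0.07 to 3.45, at 1.55. Its adaptor Dab2 was at -0.07 and -0.06, and neither gene was past the threshold.

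Of 17 receptors and partners of the carriers, 7 genes were measured at 13 probes, and none was past the threshold on either side. By unadjusted limma p the first was Fcgrt, the neonatal Fc receptor that returns albumin to the blood. Its probe ZX-00127D10 was at -0.24, -0.11, -0.53, -0.32, -0.24 and -0.25 on arrays 1 to 6, all under 0, with a mean of -0.28 ± 0.14 and a limma adjusted p of 0.074. The integrin subunit Itgav, a part of the Vtn receptors, was at -0.32 and -0.25 at 2 probes and at 0.71 at another, which read 2.12 on array 5 and 0.24 to 0.60 elsewhere. The list's median was -0.06.

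Among 19 probes of regulators of liver secretory genes, 4 were past the threshold under 0 and 1 above 0. Under 0 were Nr5a2, a nuclear receptor that acts on the Afp gene, at -0.91 ± 0.36, Foxa1 at -0.65 ± 0.31 and Foxa3 at -0.64 ± 0.17, both pioneer factors of endoderm, and the nuclear receptor Nr2f2 at -0.50 ± 0.23, with limma adjusted p of 0.030, 0.039, 0.023 and 0.041. Another probe of Foxa3 was at -0.15 and another of Nr2f2 at -0.16, so the probes of both genes disagreed. Above 0 was Hhex, at 1.30 ± 0.55 (n = 5), with all 5 ratios quotients of small whole numbers. With the array set as a term, Foxa1, Nr2f2 and Hhex were not past the threshold, at limma adjusted p of 0.057, 0.057 and 0.053. Zbtb20 and Zfhx3, repressors of Afp, ranged over their 6 probes from -0.28 to 0.24, with none past the threshold. The list's median was -0.15.

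Of 30 acinar probes, 10 were past the threshold under 0 and 0 above 0, beside 3.53% and 1.96% of all tested probes. All 10 were of Clps and Cpa1, 2 of the 7 genes measured. No probe of Ctrb1, Cela1, Cpb1, Amy2 or Cel was past the threshold, and their means ran from -0.50 to 0.70. Both Amy2 probes and the Cel probe had means above 0, while both Cela1 probes had means under it. Array medians ran from -0.31 to -0.15, and the list median was -0.20. Other Clps probes, at 0.12 and 0.02, were not past the threshold, and the list's highest mean was 0.70. Of 16 endocrine probes, 1 was past it under 0, of Neurog3, and 2 above 0, both of Ins2. Another probe of Neurog3 was at -0.32 and not past the threshold. The Ins2 probes were not past it with the array set as a term, at limma adjusted p of 0.054 and 0.051. Of 9 mesenchyme probes, 1 was past it under 0, of Sparc, and of 28 erythroid probes, 1 was past it above 0, of Hba-a1. Neither was past it with the array set as a term, at limma adjusted p of 0.057 and 0.062. With that term 8 of the 10 acinar probes were past it. The other probes of Hba-a1 had means from -0.39 to 0.05, and none was past the threshold. The medians of the last 2 lists were -0.09 and -0.05. The part of these cells in the ratios of the plasma carriers was not tested.

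**Figure D5:**
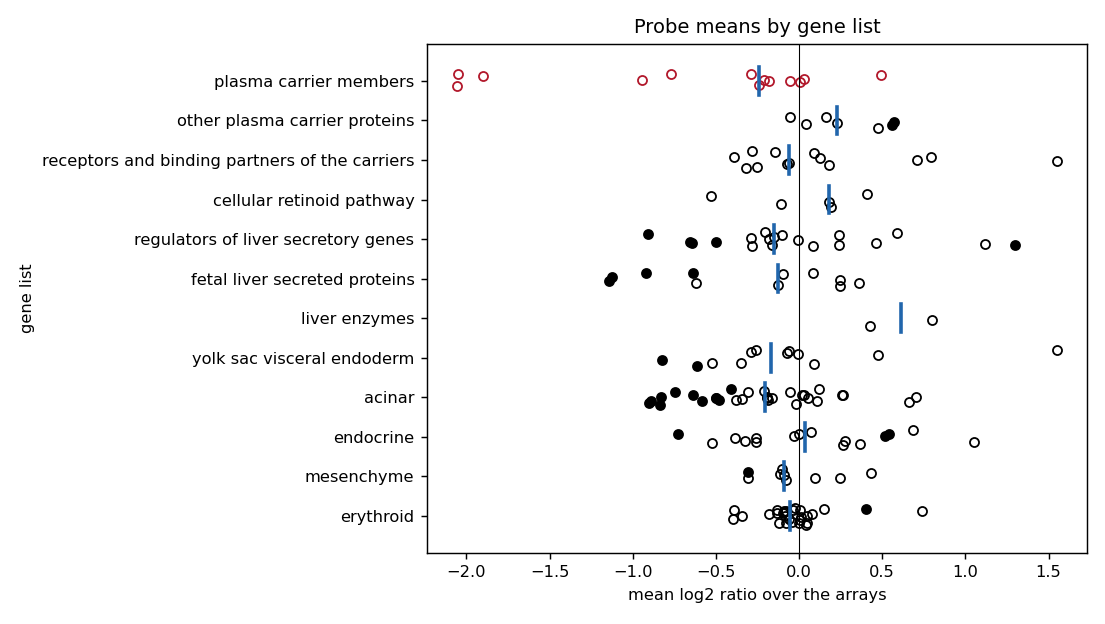
Mean log2 ratio of each probe of the plasma carrier members (red, calls not marked) and of 11 gene lists (black), with filled circles for probes past an adjusted p of 0.05 in limma and a blue bar at each list's median. The 3 low Afp probes lie under every probe of the 11 lists, and the filled circles of the fetal liver and acinar lists are all under 0.

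Calls of single genes depended on which arrays were in the fit. Of the 28 list probes past the threshold, 21 were still past it without array 2, 4 without array 3, 1 without array 6 and 0 without array 1, 4 or 5, while all 28 kept their sign each time. With the array set (1 and 2 against 3 to 6) as a term, 17 of the 28 were still past it and 11 were not.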

How the data were processed

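The values are the log2 ratios of the authors' deposited table, 1 for each probe of an array. Base 2 follows from the ceiling of 16.61, which is log2 of 1e+05. How the authors scanned, corrected and normalized the arrays, and which dye each RNA carried, is not stated in the sources used here. Ceiling values, 40 to 257 per array, were treated as missing, the median of each array was subtracted, and probes with values on at least 4 arrays were kept. Symbols were updated by Entrez ID for 17786 of 18388 probes with 1 symbol. Probes with several symbols (66) or none (3434) were not named.

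An intercept-only model was fitted in limma 3.58.1 under R 4.3.3 (lmFit, then eBayes) and tested two-sided, with p-values adjusted by Benjamini-Hochberg over 21247 probes and a threshold of 0.05. On simulated data for these probes, 19.4% of changes of 0.5, 73.1% of changes of 1 and 81.8% of changes of 2 in log2 were recovered. Calls among unchanged probes numbered 4. The simulation used independent normal noise, with no effect shared within an array, and changed only a small part of the probes. Recovery in the deposited data may therefore differ. Signal over background is unknown, and precision is limited by having 6 arrays. If the arrays repeat 1 pool per genotype, the p-values measure technical spread only and not differences between embryos. The members, the gene lists and the tests were chosen with earlier results of these data known.

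Named were all member probes, the 10 single-symbol probes nearest to the mean of the low Afp probes over 6 arrays, Sox4, and up to 4 genes past the threshold in each list, or the gene with the smallest p. Other genes, among them other probes of named genes, Itih4, Apom, Fetub, Amn, Dab2, Itgav, Zbtb20, Zfhx3, Fbp1, Cyp3a11 and the Acin1 probes, were named after their values were seen. Alternatives were other centring, filters, weights and array sets, and each array left out. Figures were drawn with matplotlib 3.10.9.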

Additional observations from a re-analysis of the deposited data

Results flagged for a closer look

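Of 95 probes, those of the members, of the genes like Afp, of Sox4 and Acin1, of the liver, carrier and yolk sac lists and the leading ones of the other lists, 9 had a single array whose gap to its nearest neighbour took up most of the range of the probe, a pattern that chance gives in about 1 of 20. Both probes of Ttr stood apart on array 2. PX-00616G14 reached 0.39 there, with -0.45 to -0.20 elsewhere, and ZA-00024C15 reached 0.27, with -0.37 to -0.17 elsewhere. On the same array, Fgb read -0.60 at ZX-00135H16, with -1.28 to -1.08 elsewhere. Sparc read -0.15 on array 1 at ZA-00026J22, with -0.36 to -0.30 elsewhere. Sox4 read -0.35 on array 3 at MMC03H11, with -0.10 to 0.002 elsewhere. Tfrc, the transferrin receptor, read 2.45 on array 5 at ZX-00137A20, with 0.05 to 0.75 elsewhere. Itgav read 2.12 on array 5 at PX-00632A14, with 0.24 to 0.60 elsewhere. Nr2f1 read -2.14 on array 3 at ZX-00144J18, with 0.61 to 1.09 elsewhere. Apoe read 1.45 on array 2 at ZX-00143I16, with -0.20 to 0.19 elsewhere. Array 2 held 4 of these 9 values.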

How the results depend on the processing

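The number of probes past the threshold, 1166, depended on the processing. It was 1786 with centring and scaling, 2402 with array weights, 619 with the mean of the probes of a gene over 10821 genes, and 695 with the array set as a term, which was chosen after seeing the data. Arrays 3 to 6 alone gave 13, and arrays 1 and 2 alone gave 0 by limma, with 2953 at an unadjusted p under 0.05. Leaving out 1 array gave 6 to 810 probes: 16, 810, 31, 10, 6 and 13 without arrays 1 to 6. Calls above 0 made up 35.7% with centring and 67.5% without, which moved the median of all probes by 0.10.

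The median over the member probes, -0.24, stayed between -0.34 and -0.16 under the alternatives for which it was computed. Array weights were left out of this range and of the values of single probes. For the single member probes, 188 of 193 values moved by less than 1 SD between arrays, 5 moved by more, and no probe past the threshold changed sign. Without centring Hpx was at 0.14 and Vtn ZA-00031O02 at 0.05, while Afp at its 3 low probes, Alb, Ambp and Vtn ZX-00137D06 stayed under 0. The cause of these shifts was not tested. Each array gives 1 ratio of both RNAs, so the test of these ratios against 0 compares the RNAs within arrays. No pairing beyond the array was used. The number of arrays and unknown signal over background limit what Rbp4 and Vtn ZA-00031O02 can show.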
